A study of Mus musculus with 18 samples.

Results

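Nuclear RNA of KO2, the second Mettl3 knockout line of mouse embryonic stem cells in the study, was compared with nuclear RNA of the Mettl3 control cells. The comparison rests on 4 of the 18 libraries, 2 of KO2 and 2 of control, taken by their genotype labels, and on every row of the deposited table that carries a mouse Ensembl gene identifier. The 2 libraries of the other knockout line, KO1, entered the same model and are given where the lines were tested against each other. All 6 libraries came from C57BL/6 cells collected with 0 h of actinomycin D, the transcription blocker used elsewhere in the study, so they hold steady-state nuclear RNA depleted of ribosomal RNA. All groups were grown in serum medium with LIF, the GSK3 inhibitor CHIR99021, which switches WNT signalling on, and the MEK inhibitor PD0325901, which blocks the ERK kinases. The labels give neither the deleted part of Mettl3, nor whether KO2 is 1 clone, nor whether replicates are separate cultures. The p-values therefore reflect library-to-library spread alone, possibly technical, and the loss of Mettl3 and any other difference between KO2 and the control cells cannot be told apart.

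METTL3 is the catalytic subunit of the nuclear complex, built with METTL14, that writes N6-methyladenosine (m6A) on RNA while it is transcribed. The mark is read by YTH domain proteins, of which YTHDC1 is nuclear and the YTHDF proteins are cytoplasmic, and it is best known for speeding the decay of the RNA that carries it. In embryonic stem cells many transcripts of pluripotency and signalling genes carry m6A, and cells without METTL3 are known for a delayed exit from the naive state.

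The KO2 libraries held 24895122 and 22714684 gene reads and the control libraries 20444256 and 22879403. Replicates differed by more than counting noise, the chi-square divided by its degrees of freedom being 2.12 in KO2 and 3.09 in control, and the biological coefficient of variation was 4.09%. Levels are counts per 1000000 gene reads (CPM) after TMM scaling, which sets the typical gene to no change. Spike-in RNA, of which the labels state 0.1 µl per sample without the RNA amount, gave 358 and 359 reads per 1000000 gene reads in KO2, 466 and 476 in KO1, and 547 and 562 in control. Scaling to it adds 0.56 to every log2 fold change of KO2 against control, so that the median over all genes is 0.53 in place of -0.03. A gene written below as lower by less than that amount is higher on the spike-in scale, and which scale holds was not tested.

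Mettl3 itself (ENSMUSG00000022160.18, chr14:52294841-52305128, minus strand, GRCm38) had 22.7 and 22.1 CPM in KO2, 32.6 and 31.3 CPM in KO1 and 36.6 and 31.9 CPM in control libraries. Both KO2 libraries lay below the other 4. The log2 fold change of KO2 against control was -0.61 ± 0.081 SE, adjusted p = 7.45e-10. That of KO2 against KO1 was -0.51 ± 0.081 SE, adjusted p = 9.25e-08. KO1 against control gave -0.10 with an adjusted p of 0.316, so the counts do not check the KO1 label. The reads in KO2 show that a transcript of the locus was still counted, and counts over the whole gene cannot show a deletion inside it. Tox4, which overlaps Mettl3 on the opposite strand and codes for a chromatin protein, had a log2 fold change of -0.61 ± 0.062, and the median of the protein-coding genes of chromosome 14 was -0.25. With spike-in scaling the change of Mettl3 was -0.05 and was no longer called, and with TMM within each chromosome it was -0.36.

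Of 21802 genes tested, 11079 (50.8%) were called at an adjusted p under 0.05, 5317 (24.4%) higher and 5762 (26.4%) lower in KO2. A change of at least 2-fold was reached by 1753 called genes that were higher (8.04%) and 1627 that were lower (7.46%). Outside chromosomes 6 and 8, 9670 of 19511 genes were called (49.6%), 5110 higher (26.2%) and 4560 lower (23.4%). About every second gene was thus called, so the counts below are read against these shares. The split depends on the scale, since 89.4% of the calls are higher with spike-in scaling and 48.0% with TMM. With spike-in scaling 12359 of the 21802 genes were called higher and 1458 lower, and list counts on that scale are read against these. Against KO1, 21.6% of all genes were called higher in KO2 and 24.5% lower on the TMM scale. With spike-in scaling 10483 genes were called higher in KO2 than in KO1 and 1663 lower, at a median of 0.38 in place of 0.00. Counts and differences against KO1 below are those of the TMM scale, and small ones can change sign on the spike-in scale.

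**Figure D1:**
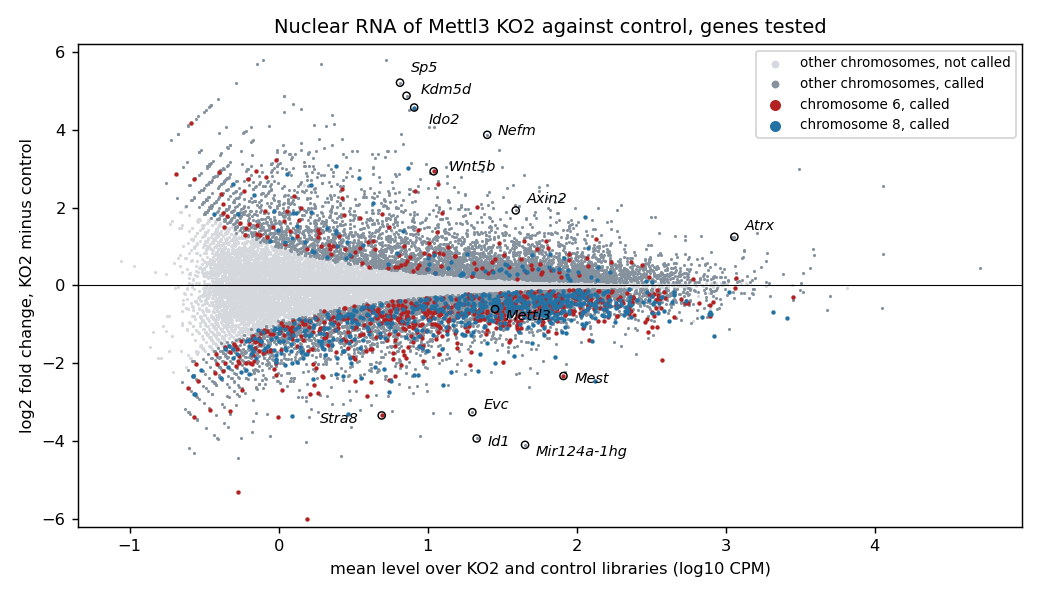
Log2 fold change of KO2 minus control (vertical axis) against the mean level over the 4 libraries (horizontal axis, log10 CPM) for each of the 21802 genes tested. Red and blue points, called genes of chromosomes 6 and 8, lie mostly below 0, and circles mark 13 genes described in the text. With spike-in scaling all points move up by 0.56.

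Genes of chromosomes 6 and 8 were lower as a group in KO2 on the TMM scale. On chromosome 6, 566 of 1138 genes were called lower (49.7%) and 127 higher (11.2%), 60.9% in all, and the median log2 fold change of its 725 protein-coding genes was -0.42. On chromosome 8, 636 of 1153 genes were called lower (55.2%) and 80 higher (6.94%), 62.1% in all, and the median of its 809 protein-coding genes was -0.44. The 13665 protein-coding genes of the other autosomes and chromosome X had a median of 0.01. With spike-in scaling the chromosome 6 median was 0.15 and that of chromosome 8 was 0.12, both still below the median of all genes on that scale.

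The share of reads showed the same in each library. Shares here are of the reads of protein-coding genes on the autosomes and chromosome X. Chromosome 6 took 4.42% and 4.43% of these reads in KO2, 5.72% and 5.72% in KO1 and 5.68% and 5.71% in control. Chromosome 8 took 4.95% and 4.95% in KO2, 4.44% and 4.44% in KO1 and 6.76% and 6.72% in control. The untreated Ythdc1 control cells of the study, another line, had 4.87% and 4.86% on chromosome 6 and 4.43% and 4.49% on chromosome 8. For chromosome 8 the Mettl3 control libraries thus lay above all others given here, and for chromosome 6 the KO2 libraries lay below all others given here.

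Along chromosome 6 the lower level was uneven. With its tested protein-coding genes in 10 equal groups by position, the median was -0.17 in the first, -0.39 in the second, -0.70 in the third, -0.59 in the fourth, -0.70 in the fifth, and between -0.23 and -0.44 from the sixth to the end. Along chromosome 8 the 10 medians ran from -0.56 to -0.36. KO1 had a median of 0.00 over chromosome 6 and of -0.51 over chromosome 8, so that KO2 minus KO1 was -0.40 on chromosome 6 and 0.06 on chromosome 8. Further chromosomes had smaller medians away from 0 in KO2, with -0.25 on chromosome 14, -0.21 on chromosome 17, -0.20 on chromosome 4 and -0.13 on chromosome 12, against 0.22 on chromosome 16 and 0.21 on chromosome X. A change in chromosome number and a change in transcription cannot be told apart from gene counts.

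**Figure D2:**
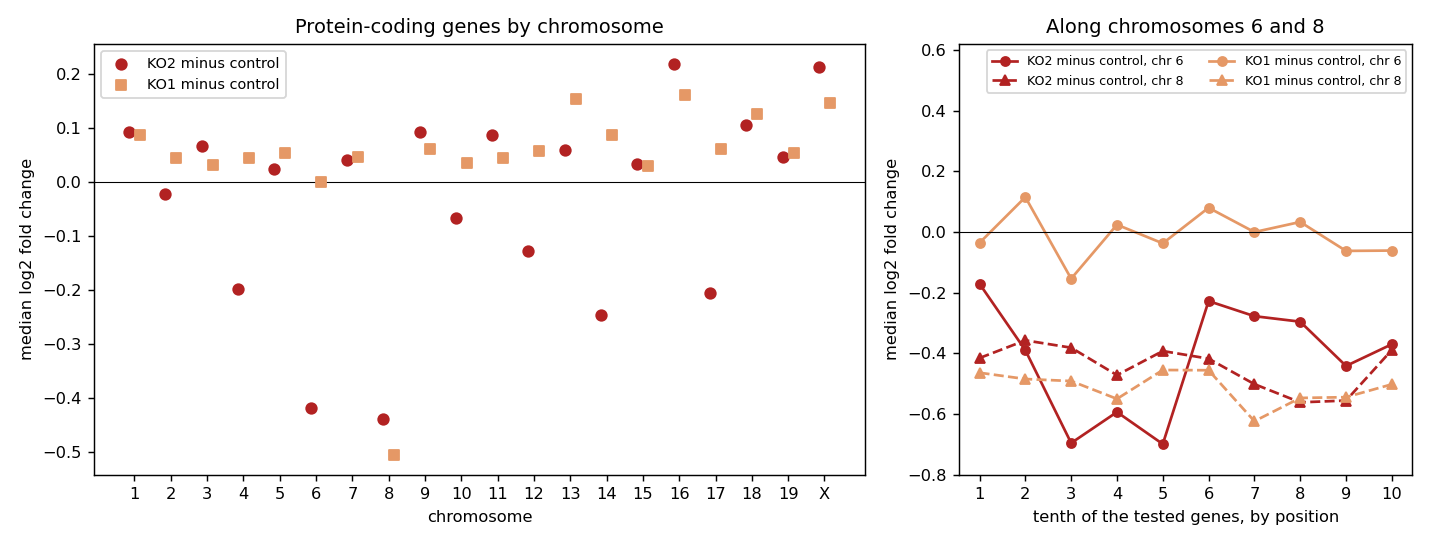
Left, median log2 fold change of the tested protein-coding genes of each chromosome for KO2 minus control (circles) and KO1 minus control (squares), which share the control libraries. Right, the same medians along chromosomes 6 (circles) and 8 (triangles) in 10 equal groups of genes by position. The KO2 medians of chromosomes 6 and 8 are -0.42 and -0.44, and with spike-in scaling both are above 0.

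Single genes of both chromosomes moved further than these medians. Stra8, which starts meiosis, had 0.821 and 0.941 CPM in KO2 libraries, against 8.73 and 9.15 CPM in control libraries (-3.34 ± 0.22 SE, adjusted p = 9.92e-23, on the log2 scale as all changes below). Next lowest on chromosome 6 were Zfp467, a zinc finger gene (-2.84, or -3.45 without KO2 replicate 1), and Sspo, which codes for a large extracellular matrix protein of the brain (-2.49). Against the trend of its chromosome, the WNT ligand gene Wnt5b had 20.4 and 18.4 CPM in KO2 libraries, against 2.58 and 2.51 CPM in control libraries (2.93 ± 0.14 SE, adjusted p = 4.03e-31). The circadian clock gene Arntl2 (2.62) and the lectin gene Clec4a1 (2.47) were also higher. Groups without overlap were a condition for naming these genes and those of chromosome 8.

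On chromosome 8 the lowest were Tmem59l (-3.31), the homeobox gene Nkx6-3 (-2.75) and Cotl1, which codes for an actin-binding protein and had 3.61 and 3.72 CPM in KO2 libraries, against 20.4 and 23.1 CPM in control libraries (-2.57 ± 0.13 SE, adjusted p = 2.02e-29). The highest was Ido2, a tryptophan-degrading enzyme gene, with 16.4 and 14.7 CPM in KO2 libraries, against 0.621 and 0.681 CPM in control libraries (4.57 ± 0.22 SE, adjusted p = 1.03e-30). Adam32, a metalloprotease family gene (3.06), and the polycystin family gene Pkd1l2 (3.02) followed.

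Outside these chromosomes the lowest named gene was Chrm1, a muscarinic acetylcholine receptor gene, with 0.287 and 0.179 CPM in KO2 libraries, against 4.58 and 5.45 CPM in control libraries (-4.38 ± 0.39 SE, adjusted p = 9.26e-17). Mir124a-1hg, the host transcript of the neuronal microRNA miR-124, had 5.05 and 4.88 CPM in KO2 libraries, against 84 and 86.1 CPM in control libraries (-4.10 ± 0.089 SE, adjusted p = 7.93e-54). Prph, which codes for the neuronal intermediate filament peripherin, had 1.4 and 0.852 CPM in KO2 libraries, against 17.4 and 15.9 CPM in control libraries (-3.87 ± 0.2). For these 3 genes the control libraries were high and the KO2 libraries low, with KO1 in between, at 25.3 and 28.5 CPM for Mir124a-1hg. Calca, the gene of calcitonin and its related peptide (-3.29), Evc, a ciliary protein gene of hedgehog signalling (-3.26), the keratin gene Krt19 (-3.22) and the apical polarity gene Crb3 (-3.19) were also among the 10 lowest. The near-identical heat shock genes Hspa1a (-3.63) and Hspa1b (-3.28), for which reads that align to both copies are not counted, and Id1 complete that set.

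Among the 10 highest were Sp5, described with its pathway, and Nefm, which codes for a neurofilament subunit and had 47.4 and 46.6 CPM in KO2 libraries, against 3.1 and 3.32 CPM in control libraries (3.87 ± 0.12 SE, adjusted p = 7.25e-44). Bglap3, an osteocalcin-related gene, had 19.998 and 21.8 CPM in KO2 libraries, against 1.1 and 1.36 CPM in control libraries (4.07 ± 0.18), and the aldehyde oxidase gene Aox3 had 13.6 and 11.1 CPM in KO2 libraries, against 1.1 and 0.596 CPM in control libraries (3.88 ± 0.23). In these 3 genes the KO2 libraries were high and the control libraries low. Groups without overlap were a condition for naming the 10 highest and the 10 lowest. Ceacam10, an adhesion molecule gene, had 96 and 106 reads in KO2 and 7 and 2 in control, a ratio of 21.4 with an exact 95% counting interval of 11 to 47.4, and its fitted log2 fold change was 5.59 without control replicate 1 and 3.68 without control replicate 2. Mogat2, of fat synthesis (4.15), the vomeronasal receptor gene Vmn2r79 (3.77) and the kininogen gene Kng2 (3.63) were also in this set. So were the Y-linked genes Kdm5d, a histone demethylase gene, with 13.8 and 14.1 CPM in KO2, 5.34 and 4.6 CPM in KO1 and 0.334 and 0.596 CPM in control libraries, and Zfy1, a zinc finger gene (4.50). The Y chromosome took 0.0423% and 0.0441% of gene reads in KO2, 0.0359% and 0.0364% in KO1, and 0.0217% and 0.0206% in control, and its part in other differences between the cells was not tested.

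Targets of the WNT pathway were higher in KO2. When WNT signalling is on, β-catenin binds TCF/LEF factors, which sit on the DNA letters CTTTGA and switch on target genes, many of them feedback inhibitors. Of 20 targets tested, 16 were called higher and 1 lower, with a median log2 fold change of 1.37, where 24.4% of all genes were called higher with a median of -0.03 over all. Promoters of Sp5 and T, a pair of called targets whose window holds these letters, are shown here from RefSeq on the GRCm38.p6 build, each on the plus strand from 250 bases before to 50 bases after the start, with CTTTGA or its reverse complement in capitals.
Sp5, chr2:70474673-70474972: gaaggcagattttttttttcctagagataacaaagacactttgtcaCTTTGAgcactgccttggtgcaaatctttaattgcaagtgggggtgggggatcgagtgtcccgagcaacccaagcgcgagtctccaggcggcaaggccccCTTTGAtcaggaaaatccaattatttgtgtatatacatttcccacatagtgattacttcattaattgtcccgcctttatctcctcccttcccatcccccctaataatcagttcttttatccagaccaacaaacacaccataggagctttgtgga
T, chr17:8434173-8434472: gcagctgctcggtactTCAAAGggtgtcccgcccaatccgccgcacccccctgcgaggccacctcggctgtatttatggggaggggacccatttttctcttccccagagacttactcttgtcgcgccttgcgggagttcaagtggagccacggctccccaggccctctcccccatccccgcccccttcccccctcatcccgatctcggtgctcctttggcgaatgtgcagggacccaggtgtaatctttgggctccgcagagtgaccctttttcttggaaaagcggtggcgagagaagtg
On either strand, CTTTGA stood in 5257 of 32851 RefSeq promoter windows (16%). Of the 20 targets, 13 had a window in the table and 6 had a match, in 6 of their 21 windows. Sp5 held 2 matches, which begin at positions 47 and 147 from the 5′ end, and T held 1, at position 17.

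Sp5, a zinc finger factor that is itself a WNT target, had 11.1 and 14.3 CPM in KO2, 12 and 11.3 CPM in KO1 and 0.525 and 0.17 CPM in control libraries. The control libraries were near 0, and the libraries of the knockout lines overlapped. Its log2 fold change against control was 5.21 ± 0.26 SE, adjusted p = 2.07e-30. Without control replicate 1 it was 6.17 and without control replicate 2 it was 4.58. Against KO1 it was 0.12 ± 0.13 SE, adjusted p = 0.506. Axin2, which codes for a scaffold of the complex that destroys β-catenin, had 61.6 and 61.8 CPM in KO2 libraries, against 16.3 and 16.2 CPM in control libraries (1.93 ± 0.073 SE, adjusted p = 7.35e-38), and Notum, whose product inactivates WNT ligands, had 26.2 and 27.9 CPM in KO2 libraries, against 5.44 and 4.81 CPM in control libraries (2.40 ± 0.11 SE, adjusted p = 1.38e-31). T, the mesoderm factor brachyury, had 82 and 46 reads in KO2 and 3 and 2 reads in control, a ratio of normalised sums of 24.4 with an exact interval of 10.2 to 76.4 (95%, counting error only). In each gene the lowest KO2 library lay above the highest control library.

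Cdx1, a homeobox gene of the posterior body, had 29.2 and 31.5 CPM in KO2, 66.2 and 60.3 CPM in KO1 and 8.59 and 8.001 CPM in control libraries (1.87 ± 0.093 SE, adjusted p = 2.17e-30, against control). It was lower in KO2 than in KO1 (-1.06 ± 0.071 SE, adjusted p = 6.77e-23). Ccnd1, the cyclin D1 gene, had 37.3 and 41.9 CPM in KO2 and 15.3 and 12.6 CPM in control (1.51 ± 0.088). The 1 lower member, named because it was the exception, was the receptor gene Fzd7 with 24.4 and 24.5 CPM in KO2 and 34.1 and 33.8 CPM in control (-0.48 ± 0.081 SE, adjusted p = 6.19e-07), which is not lower with spike-in scaling (0.09). KO1 against control, which shares the control libraries, called 12 of the 20 higher and 1 lower, and KO2 against KO1 called 8 higher and 1 lower, where 46.1% of all genes were called in either comparison. The medium of all groups holds a GSK3 inhibitor, and whether the response to it differed was not tested.

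Genes of the cholesterol list were higher as well. Those of cholesterol synthesis are switched on together by SREBP2 when sterol is low in the membrane of the endoplasmic reticulum. Of 25 tested, 21 were called higher and 1 lower, with a median of 0.79, and outside chromosomes 6 and 8 the count was 20 higher and 1 lower of 23. The promoter of Hmgcs1, the only member with a match to the sterol element letters TCACNCCAC in its window, is shown from RefSeq on GRCm38.p6, plus strand, with the match, at position 114, in capitals.
Hmgcs1, chr13:119690101-119690400: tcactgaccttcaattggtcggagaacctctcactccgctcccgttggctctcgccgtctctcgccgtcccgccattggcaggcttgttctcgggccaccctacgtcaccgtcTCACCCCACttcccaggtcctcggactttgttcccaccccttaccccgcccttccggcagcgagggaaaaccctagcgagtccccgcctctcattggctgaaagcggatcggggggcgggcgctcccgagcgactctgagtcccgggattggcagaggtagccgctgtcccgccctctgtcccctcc
These letters stood on either strand in 408 of 32851 windows (1.24%), and in 1 of the 20 windows of the 17 members that had one.

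Sqle, the squalene epoxidase gene, had 114 and 120.3 CPM in KO2 libraries, against 44.1 and 43.5 CPM in control libraries (1.42 ± 0.052 SE, adjusted p = 1.57e-38), and Cyp51, of lanosterol demethylation, had 123 and 123 CPM in KO2 libraries, against 47.4 and 53 CPM in control libraries (1.29 ± 0.051 SE, adjusted p = 1.51e-36). KO2 and control libraries were far apart in both. Msmo1, the gene of the next oxidation step, lies on chromosome 8 and was higher, with 155 and 159.6 CPM in KO2 and 80.4 and 80.2 CPM in control (0.97 ± 0.044 SE, adjusted p = 1.45e-32), and Hmgcs1, of the first committed steps, had 85 and 86.6 CPM in KO2 and 42 and 41.1 CPM in control (1.05 ± 0.057). Only Lss, the lanosterol synthase gene, was called lower, with 35.2 and 32 CPM in KO2 and 41.6 and 42.5 CPM in control (-0.32 ± 0.07; 0.24 with spike-in scaling). KO1 against the same control called 18 higher and 0 lower, where 23.9% of all genes were called higher and 22.2% lower. Between KO2 and KO1, 8 members were higher and 7 lower in KO2, the median difference being 0.04.

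**Figure D3:**
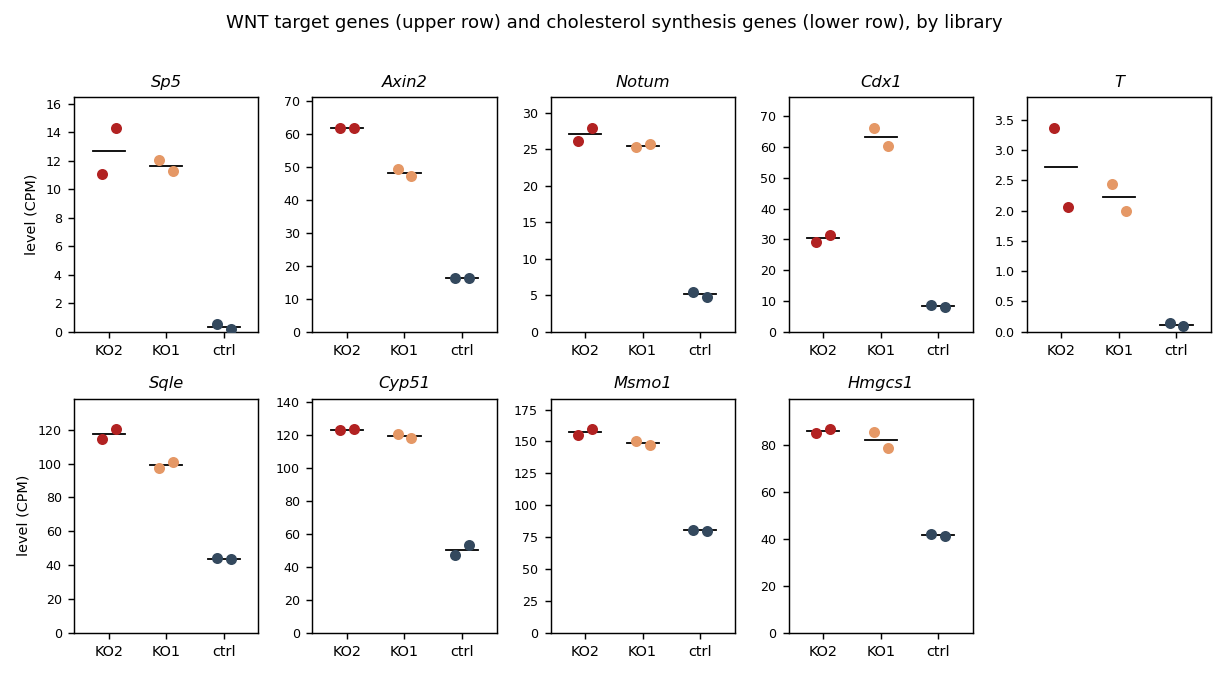
Levels (CPM, axes from 0, 1 scale per gene) of 5 WNT targets and 4 cholesterol genes in each library of KO2, KO1 and control, with bars at the group means. In all 9 genes both KO2 libraries lie above both control libraries, also with spike-in scaling.

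Genes of the FGF-ERK pathway were mostly lower in KO2 on the TMM scale. FGF4 is the ligand that stem cells make themselves, and the ERK kinases it activates switch on feedback inhibitors of the Sprouty and DUSP families and ETS factors. Of 18 genes tested, 12 were called lower and 1 higher with a median of -0.55, whereas with spike-in scaling 5 were lower and 7 higher with a median of 0.01. Fgf4 had 335 and 334 CPM in KO2, 407 and 399.6 CPM in KO1 and 613 and 586 CPM in control libraries (-0.84 ± 0.032 SE, adjusted p = 1.77e-37, against control). The feedback inhibitor Spry4 had 9.32 and 10.1 CPM in KO2, 101 and 99.9 CPM in KO1 and 27.8 and 29.2 CPM in control libraries (-1.55 ± 0.084 SE, adjusted p = 4.01e-28). Spry2, of the same family, had 32.4 and 30.03 CPM in KO2 and 70.6 and 65.6 CPM in control (-1.12 ± 0.063), and the ETS factor gene Etv4 had 8.75 and 8.69 CPM in KO2 and 24.1 and 25.2 CPM in control (-1.50 ± 0.1). All 4 stayed lower in KO2 with spike-in scaling, from -0.99 for Spry4 to -0.28 for Fgf4. The 1 higher member was the receptor gene Fgfr2 (0.41 ± 0.14), named because it was the exception, and it was not called without control replicate 1 (0.37) or without KO2 replicate 2 (0.29).

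KO2 also differed from KO1 in this pathway. Against KO1, 11 members were lower and 4 higher, with a median of -0.57, and Spry4 had the difference -3.37 ± 0.074 SE, adjusted p = 2.6e-53. The ligand gene Fgf17, outside the list, had 2.46 and 2.82 CPM in KO2, 30.1 and 29.7 CPM in KO1 and 9.83 and 10.6 CPM in control libraries, which gave -1.96 ± 0.15 against control. Against KO1 it gave -3.50 ± 0.13 SE, adjusted p = 6.92e-38. In both genes KO2 was the lowest group and KO1 the highest. The MEK inhibitor in the medium of all groups acts on this pathway, and its part was not tested.

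BMP and Notch genes moved in both directions. Of 15 BMP-SMAD targets tested, 8 were called lower and 5 higher (5 and 6 with spike-in scaling), and 3 were higher without any 1 of the 4 libraries. Id1, which codes for an inhibitor of bHLH factors and is a direct SMAD target, had 2.3 and 2.96 CPM in KO2, 4.69 and 4.78 CPM in KO1 and 39.4 and 40.6 CPM in control libraries, with KO2 lowest and control far above both knockout lines (-3.93 ± 0.13 SE, adjusted p = 7.19e-42). Bmp4, the ligand gene, had 3.74 and 4.26 CPM in KO2, 14 and 14.1 CPM in KO1 and 12.9 and 14.4 CPM in control libraries (-1.78 ± 0.14 SE, adjusted p = 1.59e-18), and Id3 had 5.09 and 5.38 CPM in KO2, 14 and 15.5 CPM in KO1 and 15.1 and 13.8 CPM in control libraries (-1.46 ± 0.13 SE, adjusted p = 5.97e-16). In Bmp4 and Id3 KO1 lay beside control and KO2 alone was low, and the differences from KO1 were -1.81 and -1.49. Id4 moved the other way, with 9.81 and 10.8 CPM in KO2 and 4.01 and 4.09 CPM in control (1.35 ± 0.15).

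Of 18 Notch pathway genes tested, 8 were called lower and 4 higher (4 and 9 with spike-in scaling). The ubiquitin ligase gene Dtx1 (-1.86) and the ligand gene Jag2 (-0.88) were lower, and the ligand gene Jag1, with 44.1 and 39.5 CPM in KO2 and 19.7 and 15.2 CPM in control (1.27 ± 0.083), and the receptor gene Notch4 (0.99) were higher. Different ligands of the same receptors thus went opposite ways on both scales.

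Core pluripotency factors were lower in KO2 than in control on the TMM scale and higher for most members on the spike-in scale. Of 10 tested, 8 were called lower and 0 higher, with a median of -0.21, against 2 lower and 7 higher with spike-in scaling. Over all 21802 genes spike-in scaling called 12359 higher and 1458 lower. Nanog, on chromosome 6, had 249.9 and 246 CPM in KO2, 464 and 453 CPM in KO1 and 399 and 392 CPM in control libraries (-0.67 ± 0.033 SE, adjusted p = 2.67e-30, against control, and -0.26 with TMM within each chromosome). Pou5f1, which codes for OCT4, had 189.8 and 187 CPM in KO2, 304 and 315 CPM in KO1 and 252 and 241 CPM in control libraries (-0.39 ± 0.037 SE, adjusted p = 2.66e-15), and Sox2 had 80.5 and 84.4 CPM in KO2 and 99.1 and 91.8 CPM in control (-0.21 ± 0.05). In each of these 3 genes KO2 was the lowest group and KO1 the highest. With TMM within each chromosome Pou5f1 was at -0.18 and Sox2 at -0.25 against control. Lin28a, of an RNA-binding protein that blocks let-7, had 34.2 and 33.6 CPM in KO2, 118 and 112 CPM in KO1 and 69.8 and 63.8 CPM in control libraries (-0.98 ± 0.059 SE, adjusted p = 3.2e-25), and the repressor gene Tcf7l1, on chromosome 6, was at -0.68 ± 0.065. Nanog (-0.11) and Lin28a (-0.41) were the members still called lower with spike-in scaling.

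All 10 core factors were lower in KO2 than in KO1 on the TMM scale, with a median of -0.47. Spike-in scaling moves the median of this comparison over all genes from 0.00 to 0.38. Of 26 naive pluripotency genes tested, 13 were called lower and 6 higher against control (5 and 18 with spike-in scaling), and 19 lower and 2 higher against KO1. Prdm14, a repressor of FGF receptors, had 16.8 and 16.1 CPM in KO2 libraries, against 52 and 52.9 CPM in control libraries (-1.68 ± 0.076 SE, adjusted p = 1.19e-32). Zfp57, which protects imprints, had 349 and 358 CPM in KO2 libraries, against 633 and 672 CPM in control libraries (-0.88 ± 0.032 SE, adjusted p = 3.77e-39). Both stayed lower with spike-in scaling. Tfcp2l1, a factor of the naive network, was higher, with 852 and 868 CPM in KO2 libraries, against 526 and 521 CPM in control libraries (0.71 ± 0.029 SE, adjusted p = 4.77e-36), and in both knockout lines.

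**Figure D4:**
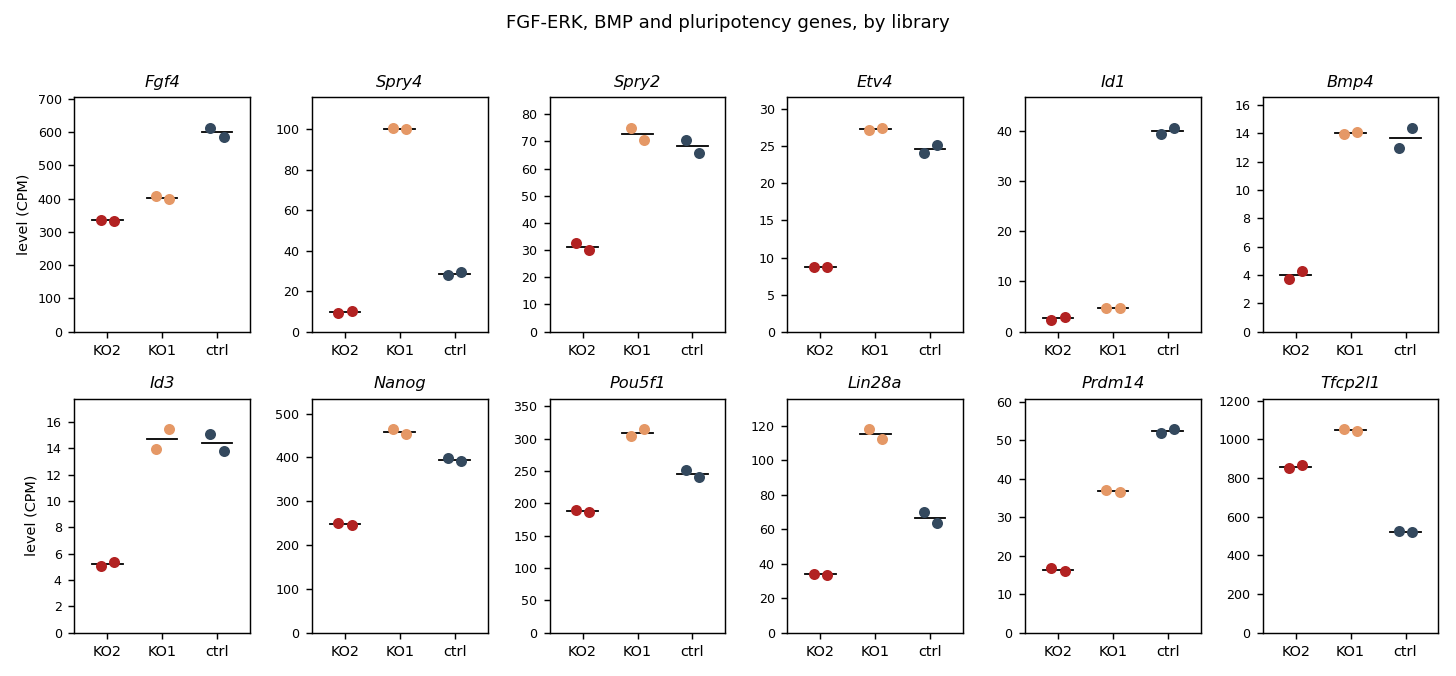
Levels (CPM, axes from 0, 1 scale per gene) of 12 genes of FGF-ERK signalling, BMP signalling and pluripotency in each library of KO2, KO1 and control, with bars at the group means. In 11 of the 12, KO2 is the lowest group, and Tfcp2l1 is higher in both knockout lines than in control. With spike-in scaling Pou5f1 is higher in KO2 than in control.

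Formative and primed genes had 8 of 18 called lower and 3 higher (5 and 8 with spike-in scaling). Zic2, a zinc finger factor of the primed state, was lower at -0.93 ± 0.078, and Dnmt3b, a de novo DNA methyltransferase, was higher, with 159 and 158 CPM in KO2 and 71.4 and 69.7 CPM in control (1.17 ± 0.047 SE, adjusted p = 2.66e-36). Of 25 genes of the 2-cell-like state, 11 were called lower and 3 higher (3 and 5 with spike-in scaling), and 6 were lower without control replicate 2 and 7 without either KO2 replicate. Usp17le, a deubiquitinase gene with near-identical copies, had 5.5 and 4.84 CPM in KO2, 2.51 and 2.26 CPM in KO1 and 10.1 and 11.3 CPM in control libraries (-1.05). Calcoco2, an autophagy receptor gene, was lower on the TMM scale (-0.38; 0.18 with spike-in scaling) and Eif1a, a translation initiation factor gene, was higher (0.40). Against KO1, 14 of the 25 were higher in KO2 and 1 lower.

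Among germline genes, 11 of 25 were called lower and 6 higher (8 and 10 with spike-in scaling). Tdrd12, of the piRNA pathway, had 131 and 126 CPM in KO2, 87 and 85.1 CPM in KO1 and 28.6 and 26.5 CPM in control libraries (2.22 ± 0.057 SE, adjusted p = 3.18e-49), and Rhox5, an X-linked homeobox gene, had 23 and 24.2 CPM in KO2, 4.46 and 3.26 CPM in KO1 and 2.91 and 3.79 CPM in control libraries (2.80 ± 0.15 SE, adjusted p = 5.44e-29). Tdrd12 was higher in both knockout lines, and Rhox5 stood high in the KO2 libraries and near control in KO1. Tex19.1, which guards germ cells against transposons, was lower at -0.83 ± 0.052.

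Markers of other cell types were examined as a check of the label, and pluripotency factors were abundant in all 6 libraries. Of the 20 fibroblast and feeder markers, 15 passed the filter and 12 were called higher in KO2 with 0 lower, at a median of 1.22. Acta2, smooth muscle actin, had 92.2 and 97.8 CPM in KO2, 28.6 and 30.4 CPM in KO1 and 16.8 and 16.3 CPM in control libraries (2.52 ± 0.07 SE, adjusted p = 9.35e-47), Col1a1, the collagen I gene, had 270.0 and 274 CPM in KO2, 96.4 and 96.3 CPM in KO1 and 105 and 101 CPM in control libraries (1.40 ± 0.041 SE, adjusted p = 4.61e-45), and Fn1, the fibronectin gene, had 4888 and 5061 CPM in KO2 and 2868 and 2932 CPM in control (0.78 ± 0.023). The collagen gene Col5a2 was at 1.45 ± 0.048. The summed level of the list was 5939 and 6106 CPM in KO2, 5026 and 5072 CPM in KO1, and 3315 and 3340 CPM in control, most of it Fn1. Of the 20 markers, 2 and 1 had 0 reads in the KO2 libraries, 1 and 2 in KO1 and 3 and 2 in control. Dcn, Fap, Lum, S100a4 and Twist2 were under the filter, among them the defining fibroblast genes of decorin and lumican, and the part of other cells in these levels was not tested. In bulk RNA, more cells of a type and more RNA per cell cannot be told apart.

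Lineage markers gave no single direction. Of 20 endoderm and basement membrane genes, 9 were called lower and 2 higher (5 and 7 with spike-in scaling), with Lama1 at -0.64 ± 0.03 and Lamc1 at 0.63 ± 0.025, both laminin chain genes. Of 13 mesoderm genes, 4 were lower and 3 higher (1 and 6 with spike-in scaling), among them Lefty2, an inhibitor in TGF-β signalling, with 269.6 and 269 CPM in KO2, 458 and 455 CPM in KO1 and 111 and 116 CPM in control libraries (1.24 ± 0.037 SE, adjusted p = 1.2e-44). Without control replicate 1 or KO2 replicate 2, 2 mesoderm genes were lower. Of 13 neuroectoderm genes, 5 were lower and 4 higher (2 and 8 with spike-in scaling). Sox1 (-1.69, on chromosome 8) and Pax6 (-2.11), early neural factors, were lower, and the intermediate filament gene Vim (0.63) was higher. Of 12 trophoblast genes, 5 were lower and 4 higher (1 and 6 with spike-in scaling), with Cdx2 at 3.57 and 3.81 CPM in KO2 and 0.621 and 0.936 CPM in control (2.22 ± 0.32). Peg10, at 0.61 ± 0.039, and Gata2, at -0.92 ± 0.12, lie on chromosome 6. With TMM within each chromosome they were at 1.025 and -0.51. Without control replicate 1 or KO2 replicate 2, 2 trophoblast genes were higher, and without KO2 replicate 1, 3 were lower. Of 25 Hox genes tested, 11 were called higher and 3 lower, at a median of 0.46, and the clusters guide body axis patterning. Hoxc12 had 11.5 and 12.8 CPM in KO2 and 3.63 and 4.26 CPM in control (1.62 ± 0.16), and Hoxc8 was at 2.51. The 3 lower, Hoxd11, Hoxd13 and Hoxa3, the last on chromosome 6, were named for being the exceptions, and none of them was called lower with spike-in scaling. Hoxa3 was not called without control replicate 1 (-1.46) or KO2 replicate 2 (-1.74), nor Hoxd11 without control replicate 2 (-1.04).

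Glycolytic and hypoxia genes were called lower more often than higher on the TMM scale. The reverse held on the spike-in scale, where 12359 of all 21802 genes were called higher and 1458 lower. The list had 35 genes tested, with 19 called lower, 3 higher and 13 not called, at a median of -0.37. With spike-in scaling 6 of them were lower and 20 higher. Outside chromosomes 6 and 8, 12 of 26 were lower and 3 higher, and with TMM within each chromosome 16 of the 35 were lower and 7 higher. Without control replicate 1, 5 were higher. Ldha, lactate dehydrogenase A, on chromosome 7, had 148 and 139.7 CPM in KO2, 379 and 374 CPM in KO1 and 252 and 235 CPM in control libraries (-0.76 ± 0.038 SE, adjusted p = 3.21e-30). Hk2, the hexokinase gene, had 180.4 and 187 CPM in KO2 and 439 and 407 CPM in control (-1.20 ± 0.036) and Ldhb had 71.4 and 67.9 CPM in KO2 and 154 and 145 CPM in control (-1.10 ± 0.045), both on chromosome 6. In Ldha and Ldhb the KO1 libraries were the highest of all. Pfkp, a phosphofructokinase gene, was higher, at 0.45 ± 0.033. Against KO1, 22 of the list were lower and 5 higher in KO2.

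All 12 mitochondrial mRNAs tested were called higher in KO2, with a median of 1.22. Reads of the mitochondrial genome made up 3.68% and 3.68% of gene reads in KO2, 1.50% and 1.50% in KO1, and 0.958% and 1.09% in control. The 12 mRNAs summed to 12445 and 12466 CPM in KO2, 10485 and 10322 CPM in KO1, and 5501 and 6383 CPM in control. Other genes of the mitochondrial genome thus made up most of the share in KO2 and the smaller part of it in KO1 and control. Such reads in a nuclear preparation come from organelles kept with the nuclei or from nuclear copies, and how far the fractions differed in purity was not tested. mt-Nd5, of respiratory complex I, had 2402 and 2275 CPM in KO2, 1407 and 1345 CPM in KO1 and 888 and 964 CPM in control libraries, and mt-Nd6, on the other strand, had 547 and 475 CPM in KO2, 302 and 290.4 CPM in KO1 and 195 and 207 CPM in control libraries. KO2 libraries were highest and control libraries lowest in both genes, with log2 fold changes of 1.34 ± 0.034 and 1.35 ± 0.068.

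Stress genes were split. Of 23 heat shock and chaperone genes, 11 were called lower and 6 higher (6 and 16 with spike-in scaling), and 3 were higher without either KO2 replicate. Hsp90aa1, the HSP90 gene, had 3837 and 3625 CPM in KO2 libraries, against 5670.0 and 5943 CPM in control libraries (-0.64 ± 0.024 SE, adjusted p = 2.84e-36). Dnajb1, an HSP40 co-chaperone gene on chromosome 8, had 27.1 and 25.9 CPM in KO2, 30.1 and 28.3 CPM in KO1 and 75.6 and 71.2 CPM in control libraries (-1.47 ± 0.067 SE, adjusted p = 2.08e-32), and Hsph1, an HSP110 gene, was at -0.73 ± 0.038. In Dnajb1 both knockout lines lay far below control. Of 30 p53 targets, 14 were lower and 9 higher (2 and 24 with spike-in scaling), with the sestrin gene Sesn1 at 1.18 ± 0.088 and the BH3 gene Pmaip1 at -0.79 ± 0.072. Of 27 ATF4 and one-carbon genes, 9 were lower and 10 higher (0 and 20 with spike-in scaling), with Stc2, a secreted stress glycoprotein gene, at 1.50 ± 0.1 and the serine enzyme gene Shmt2 at 0.62 ± 0.04.

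Of 32 interferon and double-stranded RNA response genes tested, 9 were called higher and 5 lower (24 and 3 with spike-in scaling), and 18 were not called. Without KO2 replicate 1, 4 were higher. Eif2ak2, which codes for the double-stranded RNA sensor PKR, had 13.5 and 12.4 CPM in KO2, 34.7 and 31.3 CPM in KO1 and 30.6 and 33 CPM in control libraries (-1.30 ± 0.091 SE, adjusted p = 1.14e-21). Tap1, of antigen peptide transport, was at -1.56 ± 0.16, and Ifitm1, a membrane antiviral gene, at 0.81 ± 0.085. Of 24 immediate early genes, 11 were lower and 8 higher (4 and 13 with spike-in scaling). Ccn1, a YAP target gene of a secreted matrix protein, had 135 and 128 CPM in KO2, 36.5 and 36.6 CPM in KO1 and 45.7 and 45.8 CPM in control libraries (1.53 ± 0.054). Its relative Ccn2 had 118 and 119 CPM in KO2, 55.5 and 51.9 CPM in KO1 and 67 and 66.5 CPM in control libraries (0.83 ± 0.051). Both were high in KO2 and lower in KO1 than in control, whereas Ier2, on chromosome 8, was at -0.69 ± 0.059.

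The m6A machinery itself was measured. Of 15 genes of the writer complex and erasers tested, 7 were called lower and 2 higher, and with spike-in scaling 0 lower and 12 higher. Zc3h13, which anchors the writer complex in the nucleus, had 253 and 242 CPM in KO2, 375 and 367 CPM in KO1 and 367 and 359 CPM in control libraries (-0.55 ± 0.034 SE, adjusted p = 1.48e-24; 0.01 with spike-in scaling). Wtap, the adaptor subunit gene, had 129 and 123 CPM in KO2, 200.3 and 194 CPM in KO1 and 149 and 163 CPM in control libraries (-0.31 ± 0.043; 0.25 with spike-in scaling). With TMM within each chromosome Zc3h13 was at -0.30 and Wtap at -0.10. Fto, a demethylase gene on chromosome 8, was at -0.48 ± 0.049, or -0.05 with TMM within each chromosome. Mettl16, a separate methyltransferase gene, was at 0.28 ± 0.045, and Mettl14, the partner of METTL3, had 33.3 and 35.3 CPM in KO2 and 30.5 and 30.9 CPM in control and was not called (0.16 ± 0.075 SE, adjusted p = 0.0664). Against KO1, 12 of the 15 were lower and 0 higher on the TMM scale, at a median of -0.20, where 24.5% of all genes were lower and 21.6% higher. With spike-in scaling the median of KO2 minus KO1 over all genes is 0.38 in place of 0.00, so this count depends on the scale.

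Of 15 reader genes, 10 were called lower and 3 higher, with a median of -0.39, and 4 lower and 11 higher with spike-in scaling. Ythdc1, the nuclear reader, had 149 and 148 CPM in KO2, 197 and 197 CPM in KO1 and 248 and 252 CPM in control libraries (-0.75 ± 0.038 SE, adjusted p = 1.21e-29), and stayed lower with spike-in scaling (-0.18). Hnrnpa2b1, on chromosome 6, had 574 and 572 CPM in KO2, 1101 and 1077 CPM in KO1 and 977 and 1008 CPM in control libraries (-0.79 ± 0.029 SE, adjusted p = 3.72e-39), and Hnrnpc, which binds RNA opened by m6A, was at -0.72 ± 0.033. Igf2bp2, of a reader that stabilises its RNAs, was higher, with 79.7 and 84.5 CPM in KO2, 42.4 and 43.9 CPM in KO1 and 23.5 and 25.7 CPM in control libraries (1.74 ± 0.066 SE, adjusted p = 8.82e-38). For Igf2bp2 the 3 groups were ordered KO2, KO1 and control without overlap.

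Of 22 nuclear exosome and decay genes, 10 were called lower and 4 higher (0 and 20 with spike-in scaling, and 2 higher without KO2 replicate 1), with the exonuclease gene Xrn2 at 256 and 262 CPM in KO2 and 149 and 163 CPM in control (0.73 ± 0.039) and the exosome subunit gene Exosc1 at 0.56 ± 0.092. Of 25 SR splicing factor, CLK kinase and paraspeckle genes, 18 were called lower and 3 higher, with a median of -0.27, and 1 lower and 19 higher with spike-in scaling. Sfpq, a paraspeckle protein gene, had 693 and 690.4 CPM in KO2 and 1049 and 1075 CPM in control (-0.62 ± 0.028), and Tra2a, a splicing factor gene on chromosome 6, was at -0.79 ± 0.038. Malat1, the abundant nuclear speckle RNA, had 8989 and 8869 CPM in KO2, 9324 and 9376 CPM in KO1 and 13471 and 13400.0 CPM in control libraries (-0.59 ± 0.02 SE, adjusted p = 6.8e-41; -0.03 and not called with spike-in scaling). Neat1, the RNA scaffold of paraspeckles, had 565 and 581 CPM in KO2 and 597 and 594 CPM in control and was not called (-0.06 ± 0.03 SE, adjusted p = 0.12).

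Of 41 long noncoding RNA genes of stem cells tested, 17 were called lower and 13 higher (7 and 24 with spike-in scaling). Lncenc1, a naive state transcript, had 282 and 291 CPM in KO2 and 133 and 144 CPM in control (1.04 ± 0.039). Of 40 imprinted genes, 14 were lower and 13 higher (10 and 21 with spike-in scaling). Kcnq1ot1, the noncoding RNA that silences its domain, had 1603 and 1599.9 CPM in KO2, 663 and 664 CPM in KO1 and 954 and 998 CPM in control libraries (0.71 ± 0.028 SE, adjusted p = 3.57e-37). Rian, a maternal noncoding RNA of the Dlk1-Meg3 domain, had 223 and 219 CPM in KO2, 64.1 and 58.5 CPM in KO1 and 402 and 409 CPM in control libraries (-0.88 ± 0.037 SE, adjusted p = 1.14e-34). Mest, a paternally expressed gene on chromosome 6, had 27.1 and 27.1 CPM in KO2, 68.6 and 73 CPM in KO1 and 132 and 140.1 CPM in control libraries (-2.33 ± 0.057 SE, adjusted p = 2.95e-50), and Plagl1, a paternally expressed zinc finger gene, had 269 and 264 CPM in KO2 and 121 and 126 CPM in control (1.11 ± 0.04). Kcnq1ot1 and Rian were higher in KO2 than in KO1 (1.27 and 1.85), and against KO1, 23 of the 40 were higher and 9 lower.

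Chromatin genes were split as well. Of 33 Polycomb genes, 16 were called lower and 10 higher (4 and 24 with spike-in scaling). Phc1, on chromosome 6 (-0.87), and Phf1 (-1.29) were lower, and Pcgf5 (1.35) and Suz12 (0.52) were higher. Of 30 genes of H3K9 methylation, DNA methylation and TET enzymes, 15 were lower and 6 higher (2 and 25 with spike-in scaling). Atrx, an X-linked chromatin remodeller gene, had 1622 and 1598 CPM in KO2, 1621 and 1621 CPM in KO1 and 667 and 690.2 CPM in control libraries (1.25 ± 0.027 SE, adjusted p = 7.93e-54), with all 4 knockout libraries far above control. Cbx3, which codes for the heterochromatin protein HP1γ on chromosome 6, was at -1.17 ± 0.055.

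Of 77 cytosolic ribosomal protein genes, 31 were called higher and 28 lower, with a median of -0.01 (71 and 2 with spike-in scaling), among them Rps12 at 0.54 ± 0.033, Rps21 at 0.56 ± 0.035 and Rpl13, on chromosome 8, at -0.69 ± 0.03. Of 61 replication-dependent histone genes, 24 were higher and 5 lower (52 and 1 with spike-in scaling), with the linker histone gene Hist1h1e at 0.73 ± 0.045 and Hist1h3f at -0.57 ± 0.068. Against KO1 5 were higher and 34 lower on the TMM scale, at a median of -0.24. Against control, 3 histone genes were lower without control replicate 1 and 2 without KO2 replicate 2. Of 370 Zfp genes, 98 were higher and 132 lower (246 and 34 with spike-in scaling), and outside chromosomes 6 and 8 96 were higher and 99 lower of 329. Zfp981 (229 and 217 CPM in KO2, 183 and 194 CPM in KO1 and 56.1 and 57.2 CPM in control libraries; 1.98 ± 0.045) and Zfp600 (1.55 ± 0.05), neighbours of a cluster of near-identical copies on chromosome 4, were high in both knockout lines. Of 38 cell cycle genes, 17 were higher and 11 lower (28 and 1 with spike-in scaling), with the kinase gene Cdk6 at 81.7 and 82.9 CPM in KO2 and 21.3 and 23.1 CPM in control (1.89 ± 0.063), the proliferation marker gene Mki67 at 0.44 ± 0.029 and the repressor gene E2f4, on chromosome 8, at -0.84 ± 0.044.

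**Figure D5:**
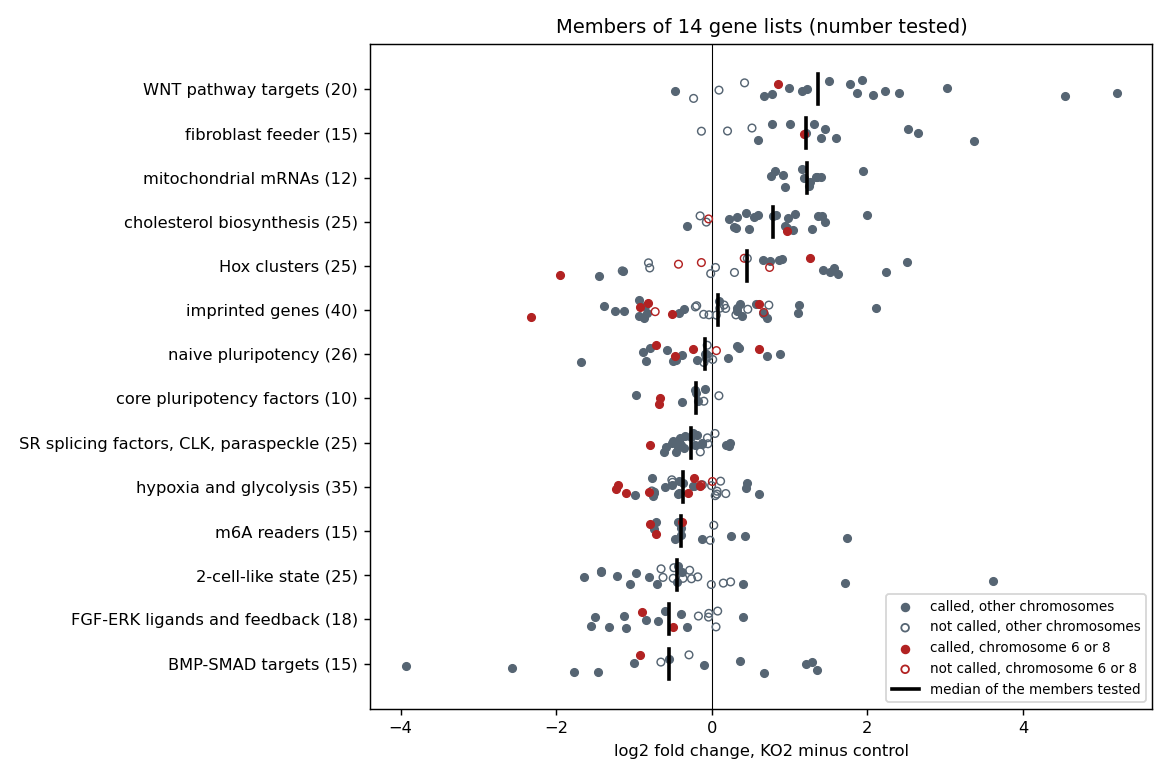
Log2 fold change of KO2 minus control (horizontal axis) for the tested members of 14 gene lists, with a vertical bar at each median and red for members on chromosomes 6 or 8. WNT targets, feeder markers, mitochondrial mRNAs and cholesterol genes have medians from 0.79 to 1.37 and stay above 0 with spike-in scaling, which moves every point right by 0.56 and brings the 8 medians below 0 to above 0.

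The largest differences between KO2 and KO1 among genes also called against control were in both directions. Against KO1, 10042 genes were called, 4710 higher (21.6%) and 5332 lower (24.5%) in KO2, without a condition on size. Padi2, a peptidyl arginine deiminase gene, had 0.862 and 0.896 CPM in KO2, 11.9 and 10.3 CPM in KO1 and 8.02 and 6.94 CPM in control libraries (-3.66 ± 0.21 SE, adjusted p = 3.06e-26, against KO1), and Misp, a spindle gene, had 1.31 and 1.34 CPM in KO2, 14.6 and 15.8 CPM in KO1 and 9.59 and 9.41 CPM in control libraries (-3.51 ± 0.18 SE, adjusted p = 9.07e-30). Evc had 4.07 and 3.45 CPM in KO2, 31.2 and 32.4 CPM in KO1 and 38.9 and 33.3 CPM in control, and Crb3 had 0.739 and 0.627 CPM in KO2, 8.31 and 7.03 CPM in KO1 and 6.97 and 5.66 CPM in control libraries. In these 4 genes the KO2 libraries alone were low. On chromosome X, Xlr3a had 9.9 and 9.77 CPM in KO2, 0.912 and 0.738 CPM in KO1 and 1.002 and 0.809 CPM in control libraries (3.55 ± 0.24 SE, adjusted p = 1.92e-22), its near copy Xlr3b was at 3.20, the lipid kinase gene Dgkk at 3.24 and Magea4, of a cancer-testis family, at 3.19. Kng2, on chromosome 16, had 11.7 and 13.5 CPM in KO2, 1.5 and 0.738 CPM in KO1 and 0.907 and 1.11 CPM in control libraries. In these 5 genes the KO2 libraries alone were high. KO2 libraries without overlap with KO1 or control were a condition for naming the genes of this paragraph, except Evc.

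Gene classes and structure were compared as a description. Of 15220 protein-coding genes 60.0% were called, with a median log2 fold change of -0.03, and of 2702 long noncoding genes 32.9%, with a median of -0.06. Median control levels were 16.3 CPM for protein-coding and 1.25 CPM for long noncoding genes, and the part of level in these shares was not tested. Outside chromosomes 6 and 8, protein-coding genes called higher in KO2 had a median longest exon of 1686 bases and those called lower 1448 bases, beside 1502 bases over all 13686. In the third of these genes with the longest exons 35.8% were called higher and 25.7% lower, against 27.7% and 28% in the third with the shortest. The density of the letters GGACT, a form of the m6A consensus, was 1.01 per kilobase in the genes called higher and 1.07 in those called lower, beside 1.05 over all. Genes with the longest exons also had higher levels, with a median of 20.7 CPM against 12.9 CPM.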

How the data were processed

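RNA was taken from a nuclear fraction, spiked with ERCC RNA, depleted of ribosomal RNA and made into stranded libraries, per the labels' protocols. Reads were trimmed with Trimmomatic 0.38, aligned to mm10 with HISAT2 2.1.0 and counted with HTSeq, per the submitters' processing notes. The deposited values are raw counts per gene. Neither the strand setting of the counting nor the gene-model release is given in the sources used here. Genes that overlap on opposite strands (Mettl3, Nefm, Cyp51, Evc, Mest, Kcnq1ot1, Wnt5b and Crb3 among those named) and near-identical copies are uncertain. So is Fgfr2, whose gene model spans chr7:130162451-133123350 and overlaps many genes on both strands. Names and positions come from GENCODE M21, in which 54409 of 54446 identifiers were found.

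The 6 Mettl3 libraries were fitted together with edgeR 4.0.16 (quasi-likelihood, robust, TMM, R 4.3.3) with 1 coefficient per group, after a filter of 10 reads, with Benjamini-Hochberg adjustment across the 21802 genes tested. A call is an adjusted p under 0.05, and every adjusted p in the text comes from this fit unless another setting is named. The fit was tested on simulated data. Errors are SE of the log2 fold change, n = 2 per group. Interval bounds cover counting error only.

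The genes named are Mettl3, the 10 highest and 10 lowest outside chromosomes 6 and 8, the 3 highest and 3 lowest on each of them, and the 5 highest and 5 lowest against KO1, all with at least 50 reads on average and no overlap of groups, and in each list at most 4 called members with the smallest p. The rule also lets any member of the m6A and core pluripotency lists be named, which covers Sox2 and Mettl14. A gene that this rule names is not reported here. The genes Fzd7, Hmgcs1, Lss, Fgfr2, Hoxa3, Hoxd11, Hoxd13, Neat1 and Tox4 were added after their values were seen. The comparison, the chromosomes and all gene lists were chosen with earlier results of these data known. Same-numbered replicates did not deviate together. Alternatives were other scalings (size factors, library size, spike-in RNA, genes outside chromosomes 6 and 8), DESeq2 1.42.0, other filters, a fold threshold and a replicate block. Others were refits without chromosomes, and leaving out each KO2 or control library in turn, but no single KO1 library. TMM within each chromosome was added after seeing the data.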

Additional observations from a re-analysis of the deposited data

Results flagged for a closer look

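Across all genes tested, 1122 were called against control in both lines with opposite signs and also differed between the lines, 752 of them lower in KO2 and higher in KO1 and 370 the other way. Both comparisons use the same control libraries, so opposite signs nearly fix the outcome of the test between the lines. Among the 153 genes named, 20 met this condition, and the test of KO2 minus KO1 (edgeR, adjusted over all genes) gave the log2 differences listed here. All counts, signs and differences of this section are those of the TMM scale. With spike-in scaling Pou5f1 (0.18), Sox2 (0.35) and Wtap (0.25) were called higher in KO2 than in control, and Hist1h3f (-0.01) was not called.

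Lower in KO2 than in control and higher in KO1 were the FGF genes Spry4 (-3.37) and Fgf17 (-3.50). So were the pluripotency genes Nanog (-0.89), Lin28a (-1.76), Pou5f1 (-0.72) and Sox2 (-0.34), and the lactate dehydrogenase genes Ldha (-1.39) and Ldhb (-1.61). The m6A genes Wtap (-0.65) and Hnrnpa2b1 (-0.93) also belonged there, as did Pmaip1 (-1.14), Cbx3 (-1.36), Hist1h3f (-1.20), Padi2 (-3.66) and Misp (-3.51). Nanog, Ldhb, Hnrnpa2b1 and Cbx3 lie on chromosome 6, whose median for KO2 minus KO1 was -0.40.

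Higher in KO2 than in control and lower in KO1 were the imprinted genes Kcnq1ot1 (1.27), Plagl1 (1.25) and Peg10 (0.94), and the YAP targets Ccn1 (1.85) and Ccn2 (1.14).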

How the results depend on the processing

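The scale decided most of what depended on the processing. With spike-in scaling Mettl3 was at -0.048 (adjusted p = 0.637) and no longer called, and the medians of chromosomes 6 and 8 were 0.15 and 0.12. Other settings moved these medians less, to -0.39 and -0.41 with size factors, -0.48 and -0.50 with library size, -0.43 and -0.46 with TMM from genes outside both chromosomes, and -0.40 and -0.43 with the stricter filter of 50 reads. Spike-in scaling turned the sign of Fzd7 (0.087), Lss (0.24), Pou5f1 (0.18), Sox2 (0.35), Calcoco2 (0.18), Zc3h13 (0.0099), Fto (0.086), Wtap (0.25) and Neat1 (0.51), and it moved 59 of 70 list counts by more than 1.5 times. The test against a fold of 1.2 moved 25 list counts that far, the stricter filter 8, DESeq2 7, TMM within each chromosome 7, and leaving out 1 library 2 to 7. Of the genes named, 133 kept sign and call with spike-in scaling. The cause of the difference between scales was not tested.

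Testing against a fold of 1.2 left 7178 genes called, 6090 outside chromosomes 6 and 8, and 5720 against KO1. Calls of KO2 against control numbered 11053 with size factors, 11263 with library size, 8874 with DESeq2, 10525 with no filter and 10487 with TMM within each chromosome. Leaving out 1 KO2 or control library, where the lone sample is assumed to vary like the other groups, gave -0.71 to -0.51 for Mettl3. The replicate numbers share no stated origin, and same-numbered libraries did not deviate together (correlation -0.005). With the replicate block 10952 genes were called, 9551 outside both chromosomes and 9911 against KO1. Depth limited the ratios of T and Ceacam10, which had 3 and 2, and 7 and 2, reads in the control libraries.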
